A study of Mus musculus with 240 samples.

Results

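Among the 34623 genes counted in laser-captured mouse oligodendrocyte precursor cells (OPCs), 39 encode synaptic vesicle and release proteins, postsynaptic scaffold proteins and other proteins used to recognise neurons. They were chosen by name: every row whose symbol was on a list of 8 vesicle fusion genes, 6 vesicle membrane genes, 2 active zone genes, 9 postsynaptic genes, 5 transmitter identity genes, 4 cytoskeletal genes and 5 other neuronal genes. The list was drawn up with earlier results of these data known, so counts of genes called are not those of a blind choice. All 39 were found and all 39 passed the filter on low counts in the bulk samples.

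The cells carried the red fluorescent reporter tdTomato and were cut from cryosections after mice had begun tamoxifen treatment, from which the days (dpi) are counted. Mice were wild-type (WT) or Trp53-/- Nf1-/- (CKO), lacking the tumour suppressors p53 and neurofibromin. The bulk groups comprised 5 WT and 7 CKO animals at 12 dpi, 5 WT and 7 CKO animals at 90 dpi, and 6 WT animals and 7 Trp53-/- Nf1-/- animals sampled as brain tumour cells at 150 dpi. From CKO mice at 12 and 90 dpi, 56 libraries per time held 10 cells captured together, and 40 per time were controls in which cells were pooled and then divided again (pool-and-split). The Cre driver and the animals' ages are not given in the sources used here, and each tumour label names 1 animal.

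Neurons release transmitter when SNARE proteins (Snap25, Vamp2, Stx1a) fuse a vesicle with the membrane, with synaptotagmins as calcium sensors and complexins as clamps and helpers. Across the cleft, the scaffold proteins Dlg4, Dlgap1, Homer1 and the Shank family hold receptors and the kinase CaMKII at the postsynaptic density. OPCs are glial cells that receive synapses from neurons and make oligodendrocytes, and they transcribe some synaptic genes themselves.

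Promoter windows of 300 bases, from 250 before to 50 after a transcription start, were taken from RefSeq (GRCm38.p6) and were found for 27 of the 39 genes, in 38 windows. They were searched on both strands for 3 motifs, and 0 matches of one overlapped a match of another in these windows. The first was RE1, the element bound by the neuronal repressor REST, searched as its 2 parts TCAGCACC and GGACAG with 2 bases between them and up to 2 mismatches in the 14 letters. It was found in windows of Syn1, Slc17a6 and Gad2, and in 0.511% of all 32851 promoter windows. The CRE letters TGACGTCA were found in the Syn1 window and in 1.79% of all windows. The GC box letters GGGCGG were found in 18 of the 38 windows, of 18 genes, and in 35.7% of all windows. The 3 windows with an RE1 match are shown because REST is known for holding neuronal genes low outside neurons. Capitals mark the match, 5′ to 3′ on the gene's strand.
Syn1, chrX:20920869-20921168, minus strand, 1 mismatch: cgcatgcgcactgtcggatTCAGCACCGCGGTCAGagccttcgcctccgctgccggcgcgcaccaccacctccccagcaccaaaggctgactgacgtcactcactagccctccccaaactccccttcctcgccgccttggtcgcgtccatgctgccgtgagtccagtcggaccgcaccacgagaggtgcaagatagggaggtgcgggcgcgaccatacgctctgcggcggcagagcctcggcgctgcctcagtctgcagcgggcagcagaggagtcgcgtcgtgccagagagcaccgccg
Gad2, chr2:22622077-22622376, plus strand, 2 mismatches: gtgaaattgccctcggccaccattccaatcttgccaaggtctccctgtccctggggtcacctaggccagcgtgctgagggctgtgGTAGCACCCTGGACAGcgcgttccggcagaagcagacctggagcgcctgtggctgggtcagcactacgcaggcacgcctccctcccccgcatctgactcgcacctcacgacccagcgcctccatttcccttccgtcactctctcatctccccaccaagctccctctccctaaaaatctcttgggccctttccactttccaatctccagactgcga
Slc17a6, chr7:51621580-51621879, plus strand, 1 mismatch, on the strand opposite to the gene: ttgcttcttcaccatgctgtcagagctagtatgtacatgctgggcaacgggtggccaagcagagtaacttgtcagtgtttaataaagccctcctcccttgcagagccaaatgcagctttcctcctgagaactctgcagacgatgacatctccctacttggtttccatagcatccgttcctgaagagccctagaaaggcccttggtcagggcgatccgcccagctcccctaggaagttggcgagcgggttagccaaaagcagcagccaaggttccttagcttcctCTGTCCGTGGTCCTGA

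The next windows belong to the gene with the largest fall in tumours, Ankrd63, and to the one with the largest positive estimate, Uchl1. Capitals mark the 2 GC boxes of Ankrd63, and the Uchl1 window held none of the 3 motifs.
Ankrd63, chr2:118703914-118704213, minus strand: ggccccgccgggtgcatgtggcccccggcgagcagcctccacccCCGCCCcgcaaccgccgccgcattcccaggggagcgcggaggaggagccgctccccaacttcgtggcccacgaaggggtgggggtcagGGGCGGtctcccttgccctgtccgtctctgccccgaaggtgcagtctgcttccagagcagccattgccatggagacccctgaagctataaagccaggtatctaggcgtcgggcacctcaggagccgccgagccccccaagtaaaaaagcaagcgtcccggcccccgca
Uchl1, chr5:66675871-66676170, plus strand: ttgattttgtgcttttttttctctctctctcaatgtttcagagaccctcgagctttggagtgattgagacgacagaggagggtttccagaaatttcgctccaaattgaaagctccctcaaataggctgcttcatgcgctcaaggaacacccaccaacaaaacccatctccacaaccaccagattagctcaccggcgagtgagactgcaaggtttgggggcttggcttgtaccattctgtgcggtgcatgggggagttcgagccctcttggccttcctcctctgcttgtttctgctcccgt
A match is a match of letters, and occupancy by any factor was not measured.

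Bulk libraries held between 0.0937 and 23.2 M counts (M, 1e+06 counts), and the 11 animals with 2 libraries had them summed. All tumours had 2 libraries and all WT animals had 1, so library number and tumour cannot be told apart in that comparison. The shallowest library was the only one of a WT animal at 90 dpi (WT_21167). OPC markers were present in WT at 150 dpi (CPM, counts scaled to a library of 1e+06). Their medians were 39.0 CPM per kb of exon for Pdgfra, 32.1 for Olig2, 10.6 for Sox10 and 7.53 for Cspg4. The neuronal markers Tubb3, Map2 and Elavl3 had 67.1, 119 and 32.0 CPM per kb there. One CKO animal at 90 dpi stood apart. In CKO_20647 the 39 genes summed to 28757 CPM, against 15393 to 17977 CPM in the other 6 animals of its group, and it was the highest of the group for 28 of the 39 genes. Its summed level of 12 astrocyte markers was 7896 CPM, against 3198 to 4251 CPM in those 6, and its 14 OPC markers summed to 3081 CPM, the lowest of the group. Results that rest on it are given with and without it. The targeted gene Nf1 had log2 estimates of -0.67 and -0.62 in CKO against WT at 12 and 90 dpi (edgeR adjusted p 0.0918 and 0.145) and was called lower in tumours at -0.47 (edgeR adjusted p 0.00354). Trp53 had estimates of -0.06 and 0.07 and was called higher in tumours at 0.74. The deleted exons were not examined separately.

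In WT animals and in CKO animals before tumours the neuronal genes were abundant in the captured material. Compared per kb of exon over the 30 non-tumour animals, Snap25 had the highest median, 551 CPM per kb (range 361 to 1117), followed by Vamp2 with 222 (137 to 269) and Gad2, a GABA-synthesising enzyme, with 193 (124 to 295). The ranges of Vamp2 and Gad2 overlapped, as did those of the next genes in order, Cplx1 (159) and Syn1 (154). At the low end stood Slc17a6, a vesicular glutamate transporter, with 1.90 CPM per kb (0.322 to 6.82), below the neurofilament genes Nefh (2.74) and Nefm (3.31). On this scale Gad1, the other GABA-synthesising enzyme, had a median of 142 CPM per kb, and Slc17a7, the other glutamate transporter, 11.0. In tumours the order of medians changed, with Uchl1 first at 58.7 CPM per kb, Snap25 second at 26.6 and Ankrd63 last at 0.174.

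The 39 genes summed to medians of 16067 CPM in WT and 16392 CPM in CKO animals at 12 dpi, 15838 and 16967 CPM at 90 dpi, and 17339 CPM in WT at 150 dpi. In tumours the sum was 2219 CPM (lowest 1384, highest 4214). The lowest of the 30 other animals was 12930 CPM (WT_21167), so the tumours did not overlap with them. In bulk samples, fewer cells of a type and less RNA per cell cannot be told apart.

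**Figure D1:**
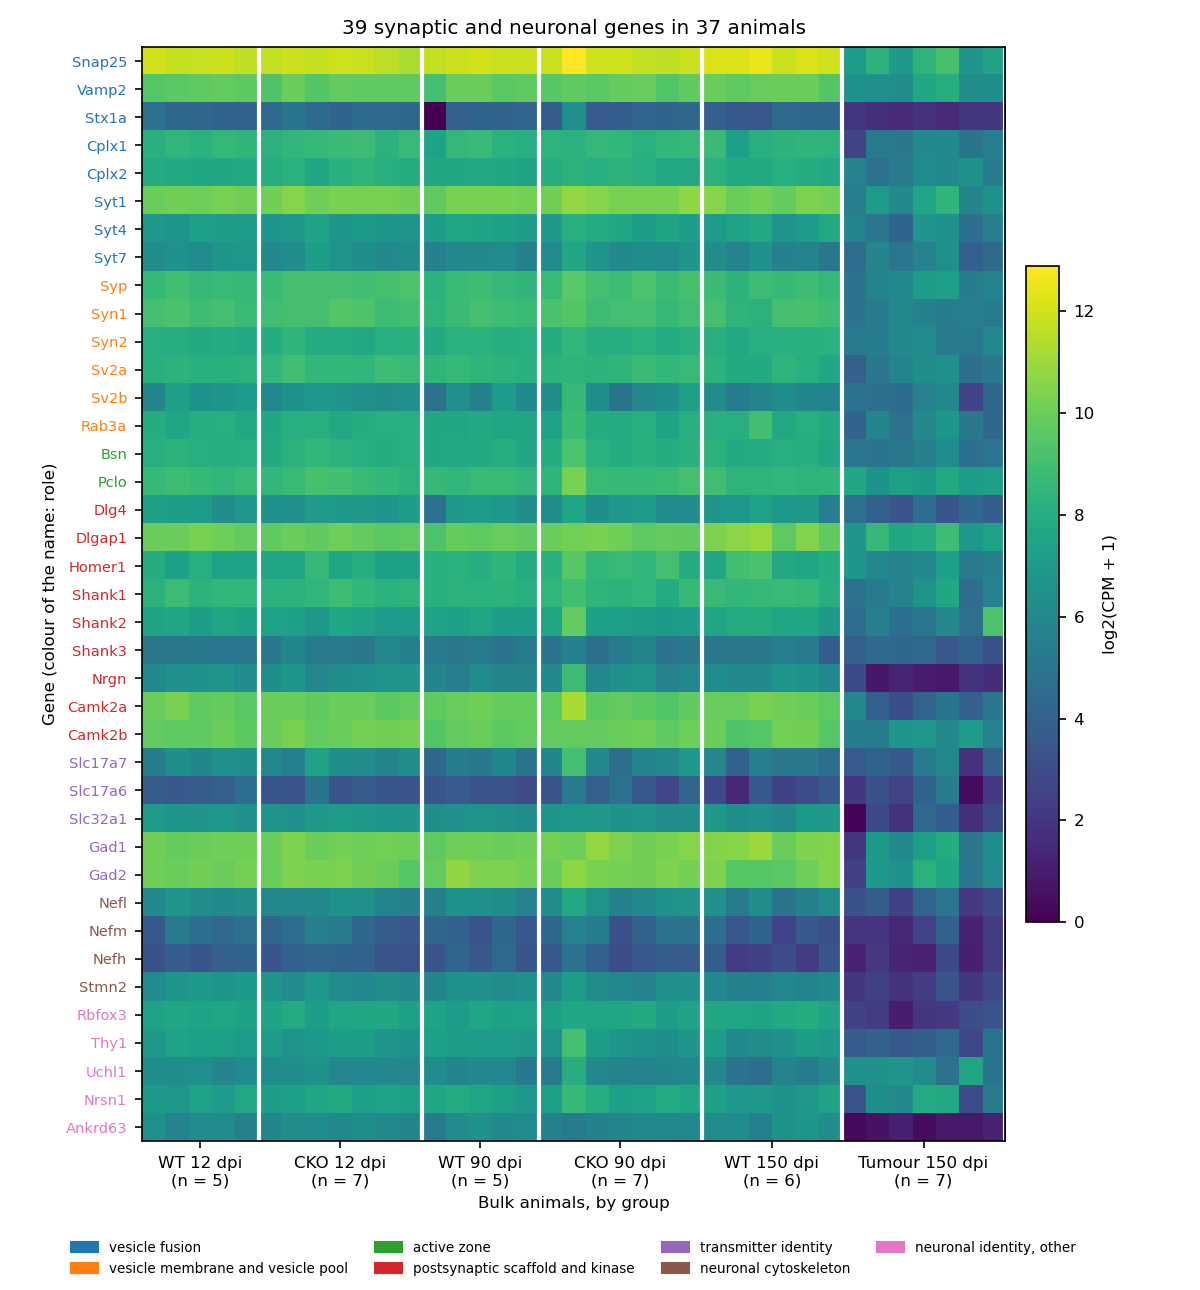
Level of each of the 39 genes, as log2(CPM + 1) by colour, in the 37 bulk animals (columns, by group); gene names are coloured by role. The 7 tumour columns are darker than the other 30 for most genes, and the bright column among the CKO animals at 90 dpi is CKO_20647, whose 39 genes summed to 28757 CPM.

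**Figure D2:**
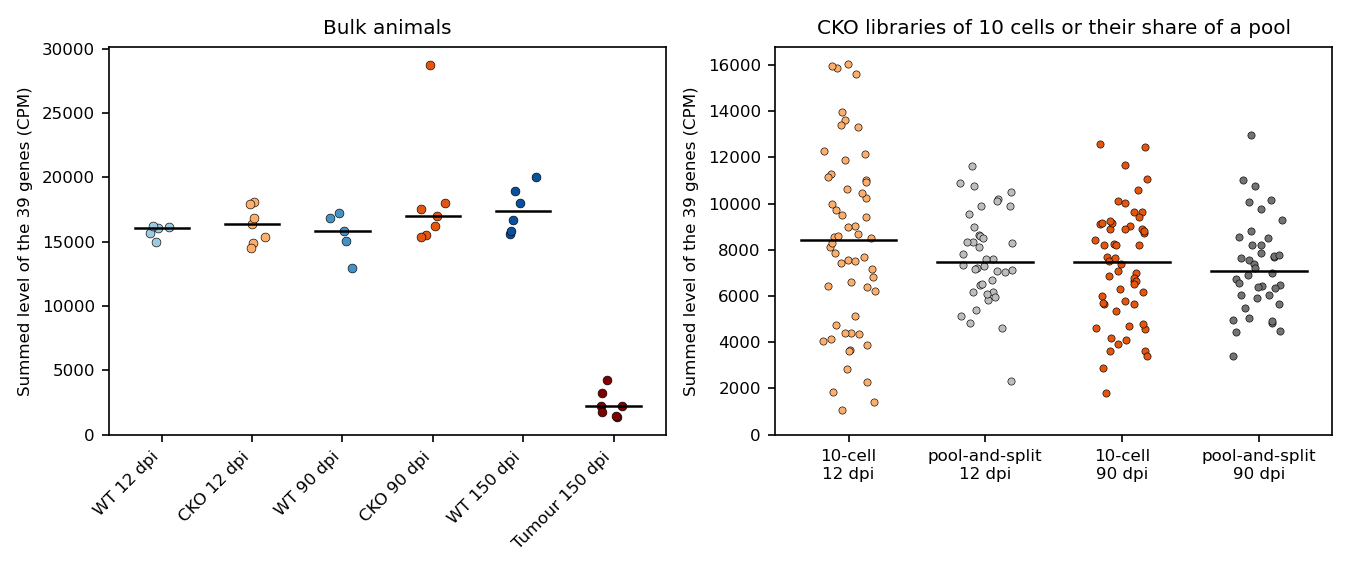
Summed level of the 39 genes in CPM per bulk animal (left, by group) and per small CKO library (right, by kind and time); points are animals or libraries and lines are medians. The tumours lie between 1384 and 4214 CPM, below all other animals, and the 4 kinds of small library have medians from 7098 to 8404 CPM.

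Deletion of Trp53 and Nf1 was first compared with WT before tumours. At 12 dpi 0 of the 39 genes passed an adjusted p of 0.05 (edgeR quasi-likelihood F test, Benjamini-Hochberg over the 16349 genes tested; 0 at an unadjusted p under 0.05), where 0.0183% of all genes tested did. The median log2 difference of the 39 was 0.08, against 0.03 over all genes, and the single estimates ran from -0.34 to 0.46. At 90 dpi again 0 of 39 passed, with 0.0489% of all genes called, and 5 had an unadjusted p under 0.05, as 5.20% of all genes did. The median was 0.26, against 0.04 over all genes, and 34 estimates were above 0. Without CKO_20647 the median was 0.14 and 0 of the 39 had an unadjusted p under 0.05. Slc17a7, which loads glutamate into vesicles of cortical neurons, shows the weight of this animal. CKO animals at 90 dpi held 23.6 to 533 CPM (median 63.7) and WT 19.0 to 59.2 (median 36.5). The lowest WT value is that of WT_21167, where a count of 0 allows up to 28.4 CPM (3 counts, counting error only). The Slc17a7 estimate of 1.58 ± 0.58 (SE; edgeR adjusted p 0.81) became 0.74 without CKO_20647. DESeq2 also called 0 of the 39 in either comparison, and so did edgeR without the shallow WT_21167.

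Time was then compared within a genotype. In CKO animals 0 of 39 genes passed between 12 and 90 dpi (0.0% of all genes; 2 at an unadjusted p under 0.05, against 4.26% of all genes), and in WT 0 of 39 passed (0.00612% of all genes; 0 at an unadjusted p under 0.05). From 90 to 150 dpi in WT 0 of 39 passed (0.0183% of all genes; 3 at an unadjusted p under 0.05, against 8.26% of all genes). DESeq2 called 0 of 39 in these comparisons too. The medians of the 39 were 0.18, -0.07 and 0.01 on the log2 scale. Without CKO_20647 the first was -0.07. For Snap25 the 5 WT animals at 12 dpi held 3204, 3495, 3520, 3809 and 4116 CPM, and the medians of the other non-tumour groups ran from 3491 to 4557 CPM.

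Tumours were compared with WT animals of the same time. In tumours 33 of the 39 genes were lower and 0 higher, where 21.9% of all genes tested were called lower and 24.3% higher. The median log2 change of the 39 was -2.48, against 0.06 over all genes. For 27 of the 39 genes every tumour lay below every WT animal, which held for 8.96% of all genes tested. The 6 genes that did not pass were Syt7, Shank2, Slc17a7, Slc17a6, Uchl1 and Nrsn1. Against CKO animals at 90 dpi, 37 of 39 genes were lower, where 22.6% of all genes were called lower, with a median of -2.81. For 31 of 39 every tumour lay below every CKO animal, which held for 10.5% of all genes. Only Slc17a6 and Uchl1 did not pass in that comparison. Without CKO_20647, 36 were lower, with Shank2 lost, and Uchl1 was called higher. The 2 comparisons share the 7 tumours, so their values stand side by side below and are not independent.

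Marker lists of other cells moved with the tumours as well. The 12 microglial markers summed to 559 to 1777 CPM in tumours and 148 to 273 in WT at 150 dpi, 14 OPC markers to 5311 to 15214 against 2982 to 5773, and 20 proliferation genes to 776 to 3607 against 88.2 to 165. Astrocyte markers summed to 1625 to 4371 CPM in tumours and 3594 to 4870 in WT, oligodendrocyte markers to 511 to 1796 and 1639 to 3516, and endothelial markers to 112 to 261 and 232 to 332. The astrocyte sum and its genes went different ways, with 6 of the 12 called higher and 3 lower and a median log2 change of 0.60. None of these lists had a gene at 0 in all tumours. The defining neuronal markers were lower in tumours but not at 0, Tubb3 at a median of 15.6 CPM against 125 in WT and Map2 at 626 against 1951. The part of the cell makeup in the fall of the 39 genes was not tested.

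The vesicle fusion genes fell together, 7 of 8 against WT, with log2 changes from -4.22 to -0.57. Snap25, a SNARE of the plasma membrane, was at 3690 to 5808 CPM (median 4557) in WT at 150 dpi. In tumours it was at 106 to 559 CPM (median 180). Every tumour lay below every WT animal. The log2 change was -4.22 ± 0.25 (SE; edgeR adjusted p 3.07e-16), and -4.20 ± 0.25 against CKO at 90 dpi. Vamp2, its partner on the vesicle, fell from a median of 965 to 89.1 CPM (-2.84 ± 0.21), and Stx1a, the third SNARE, from 16.9 to 2.58 CPM (-2.60 ± 0.35). Syt1, the sensor for fast release, fell from 1169 to 93.9 CPM (-3.18 ± 0.28). The complexin genes fell too, Cplx1 with a change of -2.89 and Cplx2 with -2.12. Syt4 changed by -1.68, with tumour and WT ranges that overlapped. Syt7, a slower calcium sensor, was at 32.8 to 96.9 CPM in WT and 14.6 to 88.4 in tumours, which overlap, and its change of -0.57 (95% interval -1.15 to 0.01) did not pass (edgeR adjusted p 0.116). Without Tumor_21256, its highest, Syt7 was called lower at -0.83 (edgeR adjusted p 0.0151). Against CKO at 90 dpi it was called lower at -1.43.

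All 6 vesicle membrane genes were lower. Syn1, which tethers vesicles in the reserve pool and whose promoter with an RE1 match is shown above, was at 311 to 564 CPM (median 508) in WT and 30.5 to 63.6 (median 42.4) in tumours. Every tumour lay below every WT animal. The change was -3.38 ± 0.17 (edgeR adjusted p 4.69e-18). Syn2 changed by -2.37, Syp by -2.40, Sv2a by -2.48 and the vesicle GTPase gene Rab3a by -2.65. Sv2b was the weakest of the role at -1.06 ± 0.39 (edgeR adjusted p 0.0253), with 43.8 to 82.3 CPM in WT and 5.05 to 62.8 in tumours, which overlap. Over the 44 alternatives its adjusted p ran from 0.00981 to 0.0668, and 37 of them called it. Both active zone genes, which organise the release site, fell. Bsn changed by -2.70 and Pclo by -1.19, the latter from a median of 342 to 155 CPM.

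**Figure D3:**
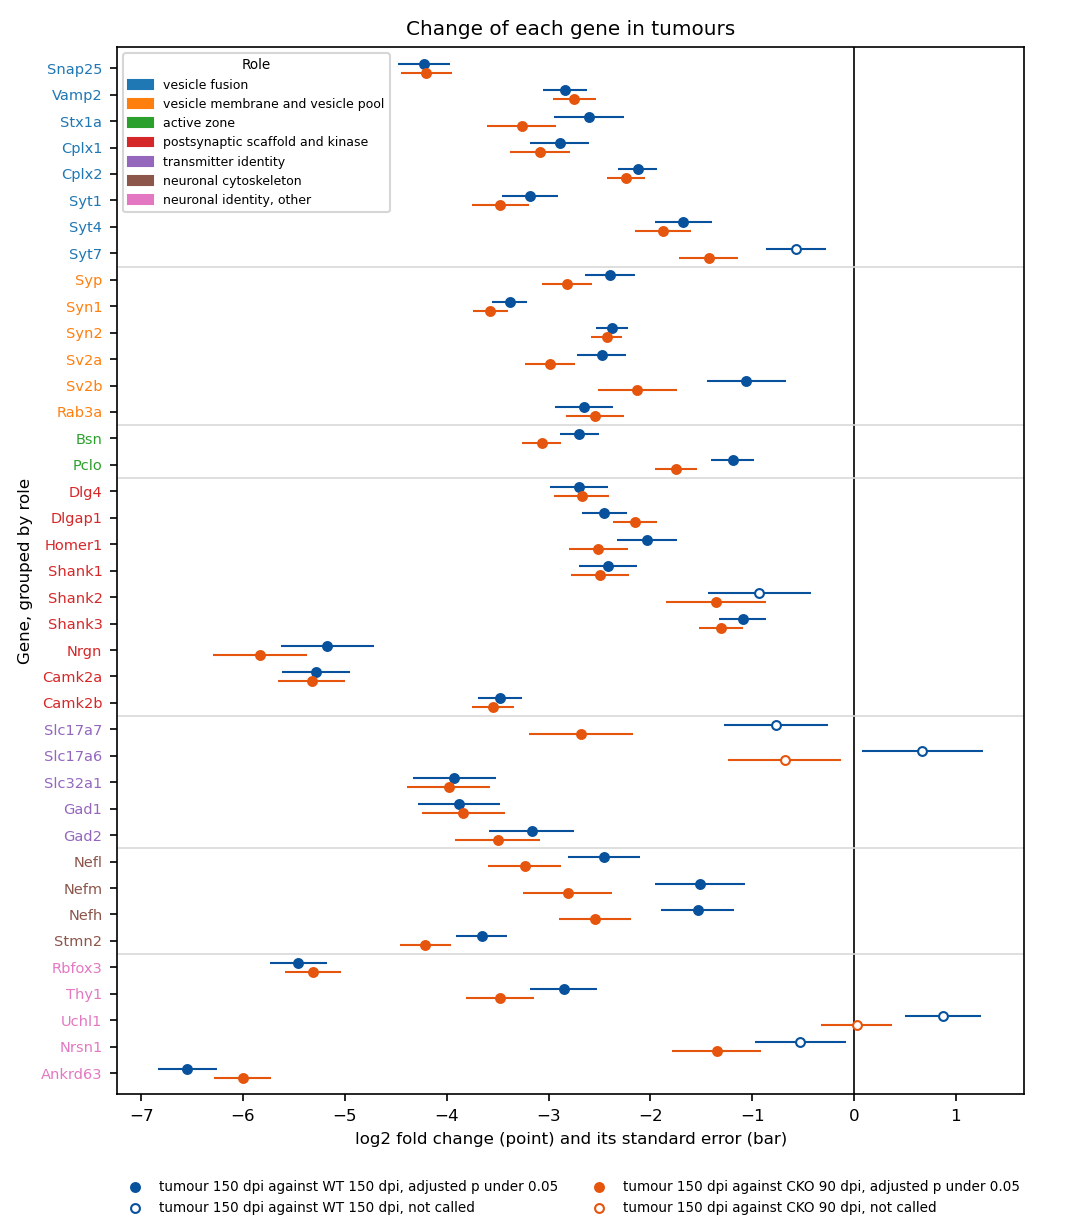
log2 change of each gene (point) with its standard error (bar) in tumours against WT at 150 dpi (blue) and against CKO at 90 dpi (orange), grouped by role; filled points have an adjusted p under 0.05. All filled points lie below 0, from -6.55 for Ankrd63 to -1.06 for Sv2b in blue, and Uchl1 lies at 0.87 and 0.02.

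The postsynaptic genes split by size of change. The calmodulin-binding protein gene Nrgn was at 62.7 to 103 CPM in WT (median 76.6) and at 0.808 to 6.48 in tumours (median 1.52), and the CaMKII subunit gene Camk2a at 836 to 1246 (median 994) and 7.66 to 60.7 (median 17.2). For both, every tumour lay below every WT animal, and Tumor_16713 was the highest of the 7. Their changes were -5.17 ± 0.46 and -5.29 ± 0.33 (edgeR adjusted p 9.65e-12 and 1.27e-15). The second subunit, Camk2b, changed by -3.48. Among the scaffold genes Dlg4 (PSD-95) changed by -2.70, Dlgap1 by -2.45, Shank1 by -2.41, Homer1 by -2.04 and Shank3 by -1.09, and all of these passed. Shank3 was at 13.6 to 45.8 CPM in WT and 8.24 to 21.1 in tumours, which overlap. The Shank2 values turned on single animals. Its tumour values were 23.1, 25.4, 27.1, 32.3, 48.5 and 65.8 CPM in 6 animals and 614 in Tumor_21354, against 119 to 254 (median 201) in WT. With all 7 the change was -0.93 ± 0.50 (edgeR adjusted p 0.131), and without Tumor_21354 it was -2.36 (edgeR adjusted p 1.26e-07). Against CKO at 90 dpi Shank2 was called lower at -1.36 (edgeR adjusted p 0.0221), a call lost without CKO_20647 (-0.72, edgeR adjusted p 0.241), whose Shank2 level was 882 CPM. Tumor_21354 also had the highest summed microglial markers of the 7, 1777 CPM, and their part in its Shank2 level was not tested.

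Of the transmitter identity genes, the 3 GABA genes were lower and the 2 glutamate transporters did not pass. Gad1 was at 1006 to 1994 CPM in WT (median 1423) and at 3.18 to 248 in tumours (median 78.2). Gad2 fell from a median of 906 to 97.6, and Slc32a1, the vesicular GABA transporter, from 103 to 5.84. In these 3 genes every tumour lay below every WT animal. The changes were -3.88 ± 0.40, -3.16 ± 0.42 and -3.93 ± 0.41 (edgeR adjusted p 5.00e-10, 8.81e-08 and 4.62e-10). Tumor_16713 was the lowest of the 7 for all 3, at 3.18, 4.50 and 0.110 CPM, while for Nrgn and Camk2a it was the highest. At its depth a count of 0 allows up to 0.329 CPM (3 counts, counting error only), so its Slc32a1 value is at the floor. The glutamate transporters started low. Slc17a7 was at 15.1 to 61.9 CPM in WT and 2.54 to 60.9 in tumours, and Slc17a6 at 1.74 to 11.1 and 0.353 to 43.2, so both overlapped. Their changes of -0.76 (95% interval -1.77 to 0.24) and 0.67 (-0.50 to 1.84) did not pass, with edgeR adjusted p of 0.229 and 0.378. Both were highest in Tumor_21256. Against CKO at 90 dpi Slc17a7 was called lower at -2.68, and at -1.72 without CKO_20647. The difference between the GABA and the glutamate genes was not tested.

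The neuronal cytoskeleton genes all fell. Stmn2, a tubulin-binding protein of growing axons, was at 45.9 to 69.2 CPM in WT (median 58.6) and 2.75 to 9.68 in tumours (median 3.77), without overlap, a change of -3.66 ± 0.25 (edgeR adjusted p 1.40e-14). The neurofilament genes Nefl, Nefm and Nefh changed by -2.46, -1.51 and -1.53, each with ranges that overlapped, Nefm from a median of 10.7 to 2.97 CPM. Exons of Nefl and Nefm overlap by 1108 bases on opposite strands, and whether counting used strand is not given in the sources used here, so their reads may be shared.

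Of the remaining neuronal genes, Rbfox3 and Ankrd63 had the deepest falls. Rbfox3 encodes NeuN, the nuclear splicing factor used to stain neurons, and was at 181 to 250 CPM in WT (median 202) and 0.994 to 9.03 in tumours (median 3.91). Ankrd63, which has an ankyrin repeat domain by name, was at 47.0 to 110 CPM in WT (median 76.0) and 0.220 to 1.44 in tumours (median 0.848). The lowest of these, in Tumor_16713, lay below the 0.329 CPM that a count of 0 allows at its depth. In both genes every tumour lay below every WT animal. The changes were -5.46 ± 0.28 and -6.55 ± 0.29 (edgeR adjusted p 4.42e-18 and 7.77e-20), and against CKO at 90 dpi both were called again, Rbfox3 at -5.31. Ankrd63 was chosen with its fall in these data known. Thy1, a neuronal surface protein, changed by -2.85. Nrsn1, a neuronal membrane protein, was at 95.0 to 168 CPM in WT and 7.07 to 246 in tumours, and its change of -0.53 (95% interval -1.40 to 0.35) did not pass (edgeR adjusted p 0.352). Against CKO at 90 dpi it was called lower at -1.35.

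Uchl1, a ubiquitin hydrolase abundant in neurons, had the largest positive estimate in tumours against WT. Its 6 WT animals at 150 dpi held 24.4 to 70.3 CPM (median 47.4) and the 7 tumours 27.5, 31.7, 74.1, 95.9, 99.0, 105 and 196 CPM. Of the tumours 5 lay above every WT animal and 2 within their range. The change was 0.87 ± 0.37 (edgeR adjusted p 0.0527), short of the threshold, and 15 of the 44 alternatives called it higher, with adjusted p from 0.0108 to 0.167. Tumor_21349, the highest at 196 CPM, also had the highest summed proliferation genes, 3607 CPM. The 2 tumours with the lowest Uchl1 were Tumor_21256 and Tumor_21354. They had proliferation sums of 776 and 1655 CPM, and the relation of Uchl1 to proliferation was not tested. Against CKO at 90 dpi the change was 0.02 (95% interval -0.66 to 0.71), and without CKO_20647, whose 263 CPM was the highest of all 37 animals, it was 0.69 (edgeR adjusted p 0.0364). Uchl1 has an antisense partner whose exons overlap its own by 295 bases, and reads of the 2 cannot be told apart without strand. Other genes here also have antisense exon overlaps, among them Syp (875 bases), Slc32a1 (697), Syt4 (566) and Pclo (496 and 429).

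**Figure D4:**
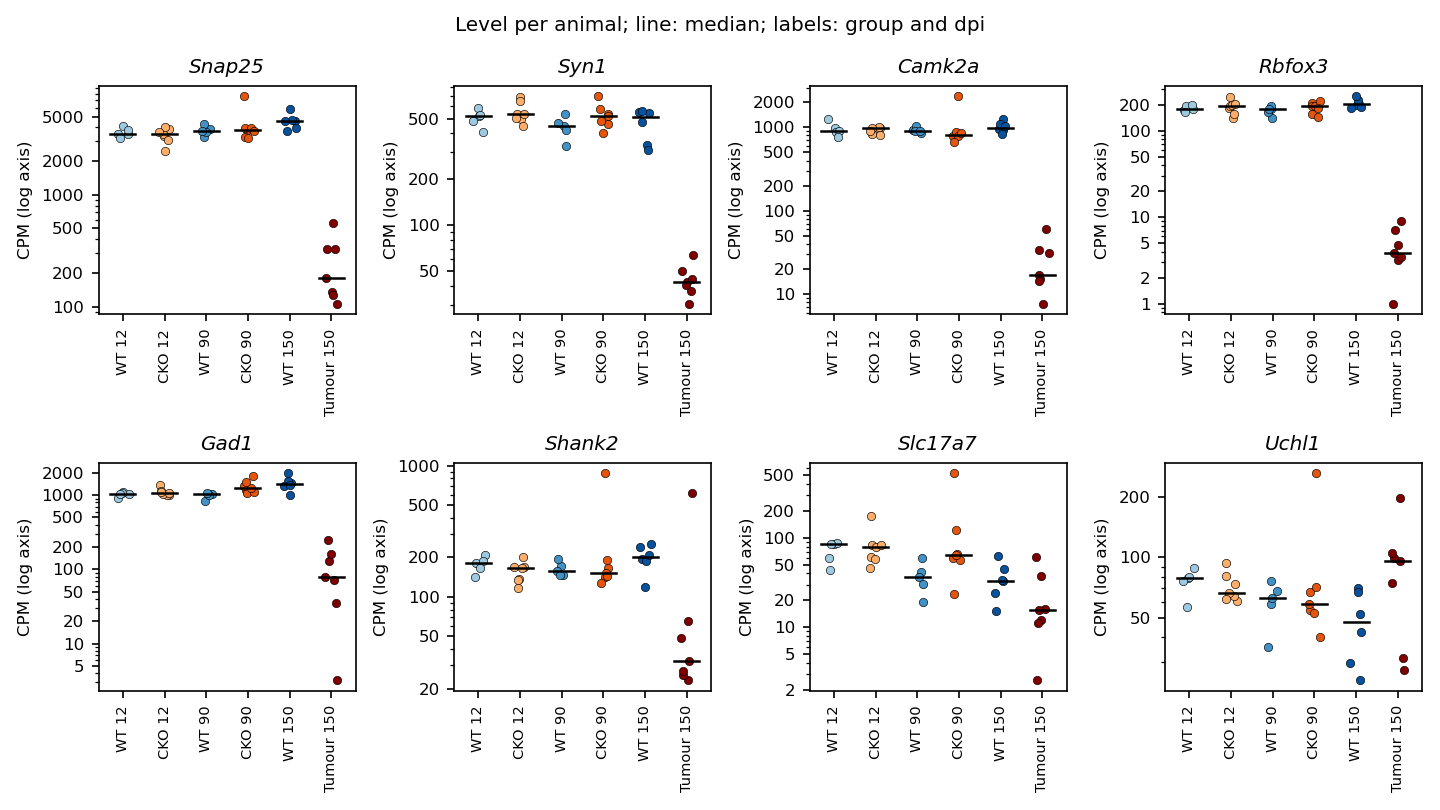
Level in CPM (log axis) of 8 of the genes in each of the 37 bulk animals, by group and dpi; lines are medians. Snap25, Syn1, Camk2a, Rbfox3 and Gad1 show no overlap of tumours with other animals, Shank2 has 1 tumour at 614 CPM, and in Slc17a7 and Uchl1 the groups overlap.

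Whether the tumour difference exceeded the genotype difference at 90 dpi was tested by an interaction term. The change from WT was more negative in tumours at 150 dpi than in CKO animals at 90 dpi for 35 of the 39 genes, where 15.8% of all genes tested were called in that direction, with a median of -2.79. Shank2, Slc17a6, Uchl1 and Nrsn1 did not pass. Without CKO_20647 the number was 31, with Syt7, Sv2b, Slc17a7 and Nefh lost (edgeR adjusted p 0.0660, 0.0794, 0.0846 and 0.0634), and it was also 31 without WT_22255.

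The ratio of the highest to the lowest animal had a median over the genes of 6.09 in tumours. In the other groups it was 1.42 (WT) and 1.59 (CKO) at 12 dpi, 1.52 and 2.40 at 90 dpi (WT without Stx1a, which 1 animal had at 0), and 1.98 in WT at 150 dpi, a difference in spread that was not tested. Without CKO_20647 the CKO value at 90 dpi was 1.58, a value added after the data were seen. Tumor_21256 had the highest value for 21 of the 39 genes and the highest sum, 4214 CPM, as well as the highest OPC marker sum, 15214 CPM, and the lowest proliferation sum, 776 CPM. Tumor_16713 and Tumor_21349 were each the lowest for 14 genes, with sums of 1384 and 1459 CPM. Tumor_21256 was also the shallowest of the 7 animals, with 4.91 M counts, and the part of depth was not tested.

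Other genes of the same systems, from lists that hold none of the 39, were mostly lower in tumours against WT. Over all genes tested 21.9% were called lower and 24.3% higher. Of 44 other release genes 32 were lower and 0 higher, with a median of -1.46. Synpr, a vesicle membrane protein, had the largest fall (-4.28), then Napb, a factor that recycles SNAREs (-3.99). Of 30 other postsynaptic genes 24 were lower and 4 higher: Camk4 (-4.34) and Nrxn3 (-4.28) fell most, and Homer3 (1.29) and Iqsec1 (1.05) rose most. Of 28 other neuronal genes tested 17 were lower and 4 higher, with Rbfox1 (-4.66) and Dlx1 (-3.98) falling most and the nicotinic receptor subunit gene Chrna4 (2.01) among those higher.

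The small CKO libraries, made from polyA RNA by PCR and not comparable in level with the bulk ones, also held the neuronal genes. Total counts ran from 1.64 to 6.49 M. Snap25 and Syn1 had counts in all 192 libraries, and Shank3 in 0 to 3 and Dlg4 in 2 to 8 libraries of each kind and time. A median of 31 of the 39 genes was detected in a 10-cell library at 12 dpi (lowest 11, highest 38), 34 at 90 dpi, and 32 and 33.5 in pool-and-split libraries. The 39 genes summed to 8404 CPM (1051 to 16027) in 10-cell and 7459 (2298 to 11637) in pool-and-split libraries at 12 dpi, and to 7451 (1807 to 12583) and 7098 (3416 to 12959) at 90 dpi, ranges that overlap.

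Levels were tested on sums over sets of libraries, 4 sets per kind and time, since the labels do not say what separates libraries within a set. Between 90 and 12 dpi 0 of 38 genes passed in 10-cell libraries (0.0% of all genes; 9 at an unadjusted p under 0.05, against 7.31% of all genes) and 0 of 37 in pool-and-split libraries (0.0% of all genes; 3 at an unadjusted p under 0.05, against 7.92%). Snap25 was at 591, 686, 692 and 877 CPM in the 10-cell sets at 12 dpi and 349, 457, 463 and 508 at 90 dpi, without overlap, an estimate of -0.98 ± 0.25 (edgeR adjusted p 0.575). Its pool-and-split sets held 318, 417, 714 and 848 CPM at 12 dpi and 209, 271, 302 and 307 at 90 dpi, an estimate of -1.19 ± 0.37 (edgeR adjusted p 0.58). Gad1 gave -0.91 and -0.99 (edgeR adjusted p 0.575 and 0.585). Estimates above 0 in both kinds were those of Syt7 (1.14 and 1.18) and Slc17a7 (1.08 and 1.35), among others. In 10-cell libraries 27 of the 38 estimates were below 0 and 11 above, and in pool-and-split libraries 18 and 19. In bulk CKO animals Snap25 was not lower at 90 dpi, with medians of 3491 and 3770 CPM. Gad1 held 996 to 1360 CPM there at 12 dpi and 1063 to 1790 CPM at 90 dpi. DESeq2 called Sv2b lower at 90 dpi in 10-cell libraries (-2.72, adjusted p 0.0179). Between the kinds, 0 of 38 genes passed at 12 dpi (0.0% of all genes; 3 at an unadjusted p under 0.05, against 8.47%) and 0 of 38 at 90 dpi (0.0%; 1 at an unadjusted p under 0.05, against 7.17%), while DESeq2 called Thy1 higher in 10-cell libraries at 12 dpi (1.65, adjusted p 0.0472). The median SE over the genes tested was 0.49 to 0.65 on the log2 scale.

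Spread between libraries was compared next, since pooling cells before dividing them averages over differences between cells. Absolute deviations were scaled for the number of libraries of a kind in a set. At 12 dpi the deviations from the set median on log2(CPM + 1) were larger in 10-cell libraries for 30 of the 33 genes tested and for 67.9% of all genes, with a median difference of 0.69, against 0.16 over all 7874 genes tested. For 16 of the 33 genes the SD was larger in all 4 sets, which held for 16.4% of all genes. By limma with Benjamini-Hochberg adjustment 0 of 33 passed, where 0.0254% of all genes did, and 13 had an unadjusted p under 0.05, as 9.50% of all genes did, all 13 with larger spread in 10-cell libraries. Nrsn1 had a mean absolute deviation of 2.65 in 10-cell and 1.16 in pool-and-split libraries, a difference of 1.49 ± 0.37 (limma adjusted p 0.121), larger in 4 of 4 sets. Syt7 had 2.68 and 1.59, a difference of 1.09 ± 0.28 (limma adjusted p 0.121), also in 4 of 4. Gad2 (1.07), Slc32a1 (0.99) and Bsn (0.97) came next. With deviations from the set mean in place of the median 8 of the 33 passed. With a pseudocount of 0.1 in place of 1, 2 did. The share of all genes called under these 2 settings is not given here, so no result about the 33 is read from these counts. The 10-cell libraries at 12 dpi also held fewer genes with a count, a median of 7550 against 8691 in pool-and-split libraries, and the part of this in the spread was not tested.

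At 90 dpi the median difference was 0.04, against -0.06 over all 9658 genes. Of 36 genes tested 19 had larger and 17 smaller deviations in 10-cell libraries, where 43.0% of all genes had larger ones. The SD was larger in all 4 sets for 5 of the 36 genes and for 5.18% of all genes. By limma 0 of 36 passed, where 0.621% of all genes did, and 3 had an unadjusted p under 0.05, where 13.6% of all genes did. These 3 had differences of 1.01 (Rbfox3), 0.68 (Slc17a7) and -0.73 (Slc32a1). Slc32a1 had deviations of 2.35 and 1.36 at 12 dpi and 1.59 and 2.32 at 90 dpi in 10-cell and pool-and-split libraries. The difference between the times was not tested. At 90 dpi the 10-cell libraries held a median of 10110 genes with a count and the pool-and-split ones 8739, the reverse of the order at 12 dpi. The labels number the libraries of each time as a separate series. At 12 dpi the kinds are mixed in that series, and at 90 dpi the pool-and-split libraries come first. What the numbers stand for is not given in the sources used here, and their part was not tested.

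**Figure D5:**
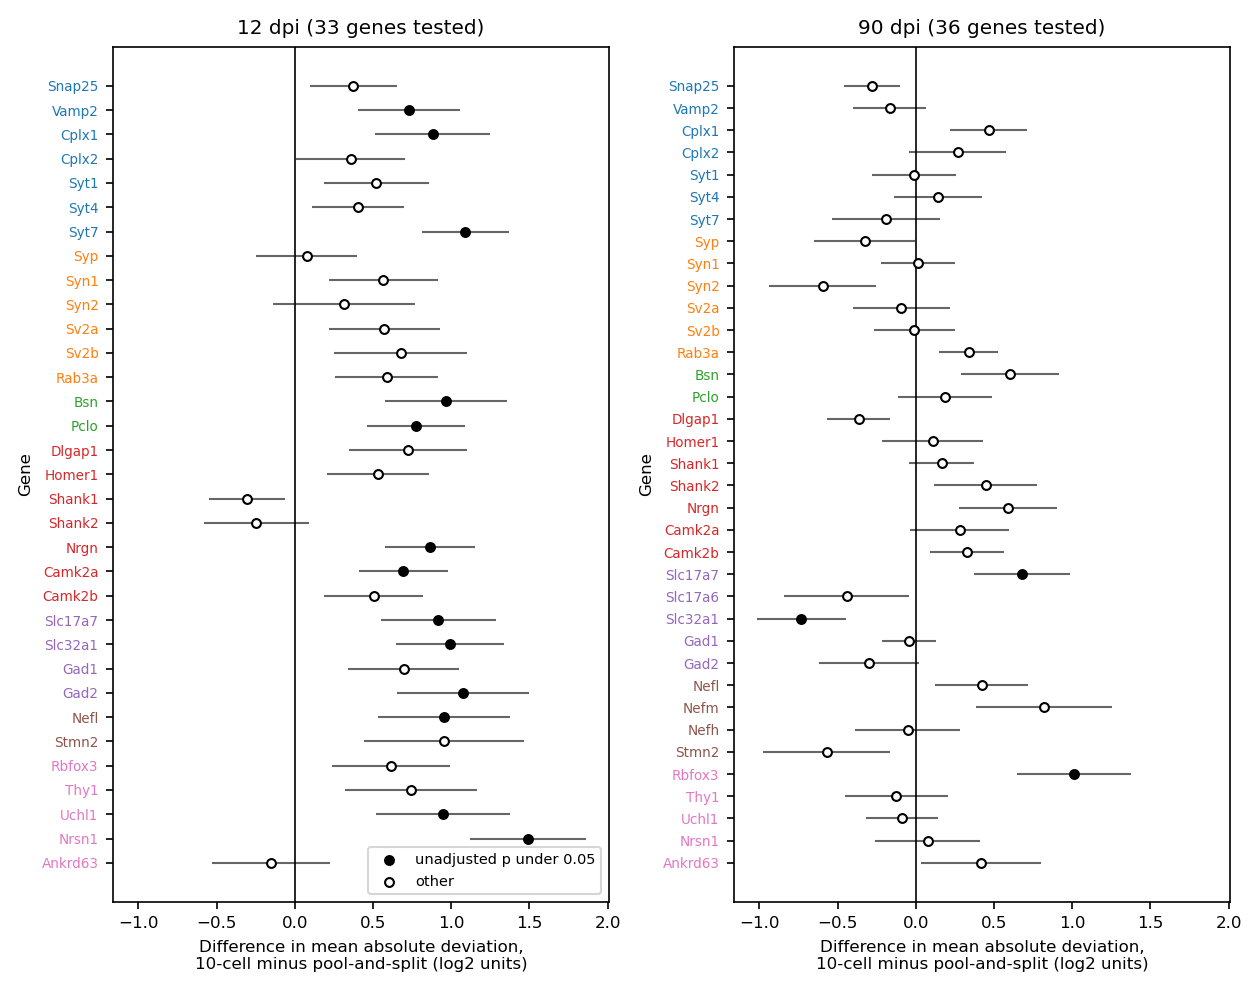
Difference in mean absolute deviation, 10-cell minus pool-and-split libraries, in log2 units (points; bars are standard errors), for the genes tested at 12 dpi (left) and 90 dpi (right); filled points have an unadjusted p under 0.05, none has an adjusted p under 0.05, and gene names are coloured by role. Most points lie right of 0 at 12 dpi, with Nrsn1 at 1.49, and they lie on both sides at 90 dpi.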

How the data were processed

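RNA of laser-captured mouse cells was measured in 240 libraries. The deposited values are expected counts per gene and library (the authors' table is unscaled, judged by its values), for which the submitters' processing notes name RSEM, Bowtie2 and GRCm38 with no versions or roles. The 39 genes and the other gene lists were chosen with earlier results of these data known. All 39 may be named, as may the 2 largest called rises and falls of each further synaptic or neuronal list.

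Expected counts were rounded, and 92 spike-in rows were left out. The 37 animals were fitted together in edgeR 4.0.16 (R 4.3.3; quasi-likelihood F test, filterByExpr, TMM, sex as a covariate). Small libraries were summed into 16 sets and tested in the same way. Spread was tested with limma 3.58.1 on absolute deviations of log2(CPM + 1) from the set median, for genes detected in 50% of libraries. Each deviation was multiplied by the square root of n/(n - 1), where n is the number of libraries of that kind in the set (14 10-cell, 10 pool-and-split). Each library was a unit there, with sex as a covariate and no term for the set. Genes are called below a Benjamini-Hochberg adjusted p of 0.05, adjusted within each comparison over every gene tested. DESeq2 1.42.0 and other settings served as alternatives. Exon lengths come from GENCODE M21, where 36 of the 39 genes have the coordinates of the deposited table. p-values of sets measure only the spread between sets, and those of the spread test rest on libraries. Fits were tested on simulated data. One gene that the naming rule selects is not reported here.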

Additional observations from a re-analysis of the deposited data

Results flagged for a closer look

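Within each group of animals the gap between the most extreme animal and its nearest neighbour was set against Dixon's 95% critical value. It was exceeded in 36 of 234 sets of values (39 genes in 6 groups). Chance alone marks about 1 set in 20, and the genes of an animal are not independent.

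CKO_20647, a CKO animal at 90 dpi, stood above its group in 17 genes. Its levels of the release genes were 7586 CPM for Snap25, 87.7 for Stx1a, 204 for Syt7, 392 for Sv2b and 437 for Rab3a. Its active zone and scaffold genes had 597 CPM (Bsn), 1200 CPM (Pclo) and 882 CPM (Shank2), and the dendritic signalling genes had 457 CPM (Nrgn) and 2350 CPM (Camk2a). Slc17a7 had 533 CPM. Among cytoskeletal and identity genes it had 223 CPM of Nefl, 29.4 of Nefh, 151 of Stmn2, 545 of Thy1, 263 of Uchl1 and 397 of Nrsn1.

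In WT_21167, a WT animal at 90 dpi, Stx1a was 0 CPM, which at this depth allows up to 28.4 CPM (3 counts; counting error only), Syt1 was 863 CPM and Gad1 825 CPM. At 12 dpi the CKO animal CKO_22017 stood apart in Syt4 (182 CPM), Syt7 (143 CPM), Slc17a7 (173 CPM) and Slc17a6 (31.4 CPM). CKO_21725 stood apart in Stx1a (30.9 CPM) and Gad1 (1360 CPM), CKO_22208 in Shank1 (469 CPM) and the WT animal WT_22281 in Slc17a6 (25.2 CPM). At 150 dpi WT_21592 stood apart in Rab3a (503 CPM), WT_21590 in Pclo (491 CPM) and WT_22064 in Shank1 (258 CPM). Among tumours, Tumor_21256 stood apart in Shank1 (206 CPM), Slc17a6 (43.2 CPM) and Nefm (15.3 CPM), Tumor_21354 in Shank2 (614 CPM) and Tumor_16713 in Nrgn (6.48 CPM).

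The change of tumours from WT differed from the change of CKO animals at 90 dpi from WT in 35 of the 39 genes by edgeR's interaction term.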

How the results depend on the processing

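Over 7 other settings (DESeq2, RLE scaling, all genes kept, genes of 10 CPM or more, sex left out, 1 library per animal, only the groups concerned) the number of the 39 genes called ran from 32 to 34 for tumours against WT, 36 to 37 against CKO at 90 dpi and 31 to 35 for the interaction. Leaving out each of the 37 animals gave 32 to 35, 36 to 38 and 31 to 35, and 0 called genes changed sign. Of the 33, 37 and 35 genes called, 32, 36 and 31 were called under all 44 settings. The 5 comparisons without tumours called 0 under every one.

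In the small libraries DESeq2 called 1 gene for 10-cell libraries over time and 1 between kinds at 12 dpi, where edgeR called 0. For spread at 12 dpi a pseudocount of 0.1 gave 2, detection in 0.9 of libraries 1 and deviations from the mean 8. At 90 dpi deviations from the mean gave 2, and the settings used gave 0 at both times. The share of all genes called under these alternatives is not given here. Thinning to the shallowest library and leaving out each set gave 0. With the replicate block, 0 genes were called in each small-library comparison. The 10-cell and pool-and-split sets of the same time, sex and number correlated at 0.02 to 0.11. Same-numbered sets of the 2 times correlated at -0.04 to 0.02. In the main fits the numbers were not taken as pairs, while the SD comparisons per set did match the 2 kinds by set.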
